A study of Mus musculus with 3 samples.

Results

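The probes described are miR-126-3p, miR-126-5p, miR-191, miR-425 and miR-199a-3p, microRNAs that are abundant in endothelial cells, platelets or mesenchymal cells. They were picked by probe name, and all 5 were among the 566 probes of the serum table. Serum came from female BALB/c mice, 6 to 8 weeks old per the labels, that carried tumours of the 4T1 line, mouse mammary carcinoma cells that stand for triple-negative disease, and were killed 28 days after 100000 cells were placed in a mammary fat pad. The tumours were either Tn+, from 4T1 cells in which CRISPR/Cas9 had been directed at Cosmc, a chaperone needed to extend O-glycans, or Tn-, from 4T1 cells. Tn is the short O-glycan that is exposed when extension fails. Sera of 1 tumour type were combined before extraction, which gave 2 Tn+ pools and 1 Tn- pool, and the comparison asks which circulating microRNAs differ with that status. The labels do not give the number of mice in a pool, or say whether the Tn+ line was 1 clone and whether different mice went into each Tn+ pool, and serum of mice without a tumour was not analysed here. Tn- serum thus has no replicate, and each p-value below covers no more than the spread of these pools.

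MicroRNAs are short RNAs cut from hairpin precursors. Loaded into Argonaute, they repress messenger RNAs that pair with their seed, the bases near the 5′ end. Either strand of a hairpin can be kept, and the strands are named 5p and 3p after the arm they come from. In serum, microRNAs travel in vesicles, with lipoproteins or bound to protein, and blood cells, platelets and endothelium are known sources. miR-126-3p is the best known endothelial microRNA, supports VEGF signalling by repressing Spred1, and is also carried by platelets. miR-126-5p, from the other arm, represses Dlk1 in endothelial cells. miR-191 and miR-425 are cut from 1 transcript and are abundant in platelets and other blood cells. miR-199a-3p is made by fibroblasts and other mesenchymal cells and is found in platelets.

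Mature sequences were matched in RefSeq (GRCm38.p6) for 4 of the 5 probes, taking the probes miR-191 and miR-425 as the 5p strands. They are shown, with the seed (bases 2 to 8) in capitals, because the seeds show that the probes do not read out 1 seed family. The 3p strand of miR-126 lies at chr2:26591402-26591423 on the + strand. miR-191 lies at chr9:108568325-108568347 and miR-425 at chr9:108568789-108568811, both on the + strand.
miR-126-3p: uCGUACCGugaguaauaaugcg
miR-191: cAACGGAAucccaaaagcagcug
miR-425: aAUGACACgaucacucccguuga
miR-199a-3p: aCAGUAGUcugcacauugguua
The 4 seeds differ from each other. In the RefSeq table no other mature mouse microRNA has the seed of miR-126-3p or of miR-191. The seed of miR-425 is shared with miR-489-3p, and that of miR-199a-3p with miR-199b-3p. The probe miR-489, whose arm the table does not name, was at its pool's lowest value in Tn+ pool 1 and had 4.97 units in Tn+ pool 2, against 1.58 units in Tn- serum.

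The hairpin of Mir126a is shown with the 3p strand in capitals, since its arms gave different signals. It lies at chr2:26591357-26591429 on the + strand, within the span of Egfl7, a gene of endothelial cells. The hairpin Mir126b is annotated on the opposite strand of the same stretch.
Mir126a: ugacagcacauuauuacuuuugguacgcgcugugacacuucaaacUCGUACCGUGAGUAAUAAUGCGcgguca
The Mir191 and Mir425 hairpins lie within the span of Dalrd3, on the same strand, with 384 bases between them.

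The 3 hairpins that carry the strand measured by the miR-199a-3p probe are shown with that strand in capitals, because it is the same in each of them. The probe therefore reads all 3 genes as 1 signal. Mir199a-1 lies at chr9:21496495-21496564 on the - strand within Dnm2, Mir199a-2 at chr1:162217814-162217923 on the + strand within Dnm3 and the long non-coding gene Dnm3os, and Mir199b at chr2:32318460-32318569 on the + strand within Dnm1.
Mir199a-1: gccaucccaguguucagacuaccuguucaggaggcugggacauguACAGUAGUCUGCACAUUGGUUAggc
Mir199a-2: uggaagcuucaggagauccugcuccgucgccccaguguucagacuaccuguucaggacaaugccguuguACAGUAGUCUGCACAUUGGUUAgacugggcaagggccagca
Mir199b: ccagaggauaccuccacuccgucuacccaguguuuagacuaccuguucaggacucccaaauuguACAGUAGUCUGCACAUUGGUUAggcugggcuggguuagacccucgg

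The pools differed in how much signal they held. The summed normalized signal was 59444 and 31977 units in the Tn+ pools and 4204 units in the Tn- pool, and 228 and 150 probes lay above the lowest deposited value in the Tn+ pools, against 85 in the Tn- pool. The lowest value, shared by many probes, was 1.00 and 1.09 units in the Tn+ pools and 1.08 units in the Tn- pool, and a probe there is called undetected. Above it, signals lay on a regular grid with a step of 0.896 and 1.09 units in the Tn+ pools and 1.08 units in the Tn- pool. If 1 step is taken as 1 counted barcode, counting error is at least the square root of a signal in steps, and more by an unknown amount because background had been subtracted. This least counting error is given beside single values. The 8 listed red-cell microRNAs include miR-451, the highest probe in each pool. Their summed signal made up 82.9% and 70.8% of the Tn+ totals and 53.4% of the Tn- total. It was 49289 and 22627 units in Tn+ serum, against 2245 units in Tn- serum. Of the 8, 5 exceeded Tn- serum at least 2-fold in each Tn+ pool. That held for 12% of all 566 probes and for 26.3% of the 259 detected in at least 1 pool. Single members did not all follow the totals. miR-25 (1868 and 5513 units) and miR-486 (1058 and 2268 units) were higher in Tn+ pool 2, which had the lower total. miR-92a had 7.05 and 1.09 units in Tn+ serum, the latter undetected, against 3.73 units in Tn- serum. In the Tn- pool miR-144, a defining red-cell microRNA, was at the lowest value, as was miR-363, which was at it in every pool. The part of red-cell RNA and of the totals in the results below was not tested.

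The 4 microRNAs of the miR-126 and miR-191 transcripts were detected in both Tn+ pools and undetected in the Tn- pool, while miR-199a-3p had its highest signal in the Tn- pool. miR-126-3p and miR-425 stood at about 40 units in Tn+ serum and miR-191 at about 20 units (39.1 ± 5.25, 42.4 ± 0.636 and 19.0 ± 5.94 units, SD, n = 2). miR-126-5p was close to the limit of the assay. Of the 5, 3 (miR-126-3p, miR-191 and miR-425) exceeded the Tn- pool at least 2-fold in both Tn+ pools on signal + 1, and none was 2-fold below it in both. With pool totals made equal, miR-191 no longer met the rule. The same rule was met by 12% of all 566 probes and by 26.3% of the 259 probes detected in at least 1 pool, and the lower side by 0.707% of all probes. Signal was above the Tn- pool in both Tn+ pools for 4 of the 5 and for 42.1% of the 259 probes, and detection in both Tn+ pools but not in Tn- serum, seen for the same 4, held for 25.5% of the 259.

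**Figure D1:**
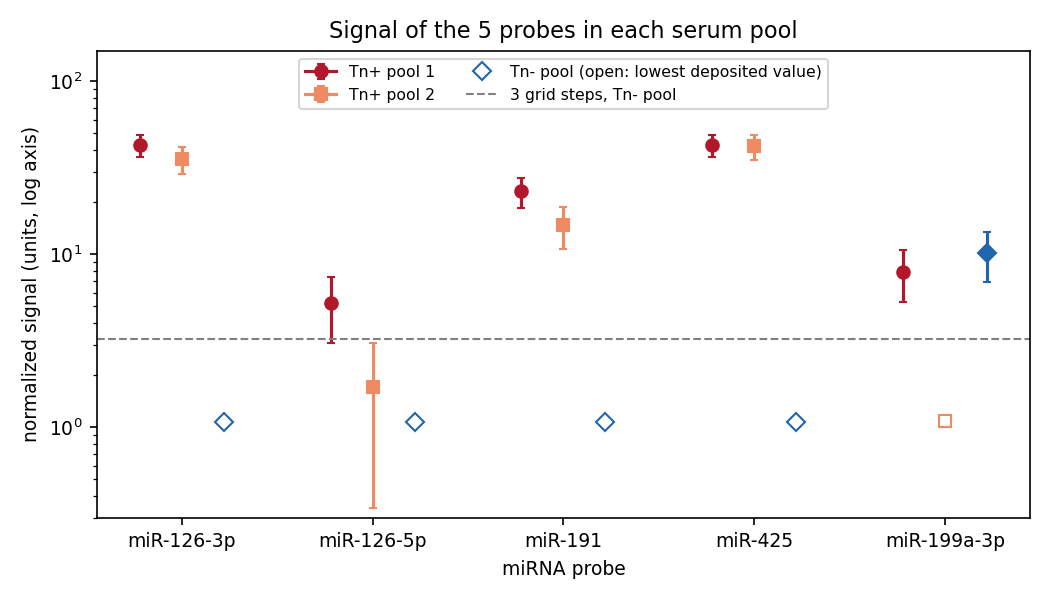
Normalized signal (units, log axis) of the 5 probes in each pool, Tn+ left of Tn-, with bars of 1 least counting SD. Open symbols are undetected probes at the lowest deposited value; 4 of the 5 are open in the Tn- pool, and miR-199a-3p is open in Tn+ pool 2.

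miR-126-3p (MIMAT0000138) had 42.9 and 35.4 units in the Tn+ pools and was undetected in the Tn- pool. Pool 1 was 1.21-fold above pool 2, a log2 difference of 0.27 against a least counting error of 0.33. Both Tn+ values lay far above the lowest value, ranking 31st of 228 and 35th of 150 detected probes. Set against 3 grid steps in the Tn- pool (3.23 units), they were 13.3-fold and 11.0-fold higher. That ratio is a description and no lower limit, since the error of the subtracted background is unknown.

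miR-425 (MIMAT0004750) was the most even of the 5 between the Tn+ pools, with 42.9 and 42.0 units, and it was undetected in the Tn- pool. The Tn+ pools differed by 1.02-fold. The ratios to 3 grid steps in the Tn- pool were 13.3-fold and 13.0-fold. In Tn+ pool 1 miR-425 and miR-126-3p had the same signal, and over the 3 pools the log2 profiles of these probes were the closest among the 5, at a Euclidean distance of 0.19.

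miR-191 (MIMAT0000221) had 23.2 and 14.8 units in the Tn+ pools and was undetected in the Tn- pool. Pool 1 was 1.57-fold above pool 2, a log2 difference of 0.65 against a least counting error of 0.48. It ranked 46th of 228 and 54th of 150 detected probes, and its ratios to 3 grid steps in the Tn- pool were 7.17-fold and 4.57-fold.

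miR-126-5p (MIMAT0000137) had 5.26 and 1.70 units in the Tn+ pools and was undetected in the Tn- pool. The value in Tn+ pool 2 is the lowest that any detected probe has there and lies under 3 grid steps of that pool (3.26 units). The least counting error was 41.3% of the signal in pool 1 and 80.0% in pool 2. No difference between groups could be read from these values: with the Tn- pool at 3 grid steps, pool 1 lay above it and pool 2 below.

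miR-199a-3p (MIMAT0000230) had 7.94 units in Tn+ pool 1, was undetected in Tn+ pool 2, and had 10.2 units in the Tn- pool. Detection in this combination of pools held for 5.02% of the 259 probes. The groups did not overlap, but on the deposited scale Tn+ pool 1 lay only 0.36 log2 units below the Tn- pool, less than the least counting error of 0.67. Both Tn+ pools were below the Tn- pool for 6.18% of the 259 probes.

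Across all 566 probes, limma on log2(signal + 1) called 0 probes at an adjusted p of 0.05, and 11.1% at an unadjusted p under 0.05. Among the 5, the log2 ratio of Tn+ to Tn- serum was 4.38 (SE 0.15, adjusted p = 0.117) for miR-425. For miR-126-3p it was 4.26 (SE 0.21, adjusted p = 0.117), and for miR-191 it was 3.23 (SE 0.38, adjusted p = 0.243). For miR-126-5p it was 0.98 (SE 0.70) and for miR-199a-3p -1.37 (SE 1.18), both with a limma adjusted p of 0.895. The median of the 5 was 3.23, beside 0.71 over the 259 detected probes and -0.02 over all probes. The 7 detected red-cell microRNAs had a median of 3.68. Many of the 259 were close to the lowest value, where signal + 1 understates changes, so these medians do not set the 5 apart. With 3 pools, each probe leaves 1 residual degree of freedom, which only the Tn+ pools supply, and the single Tn- pool is taken to vary like them.

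**Figure D2:**
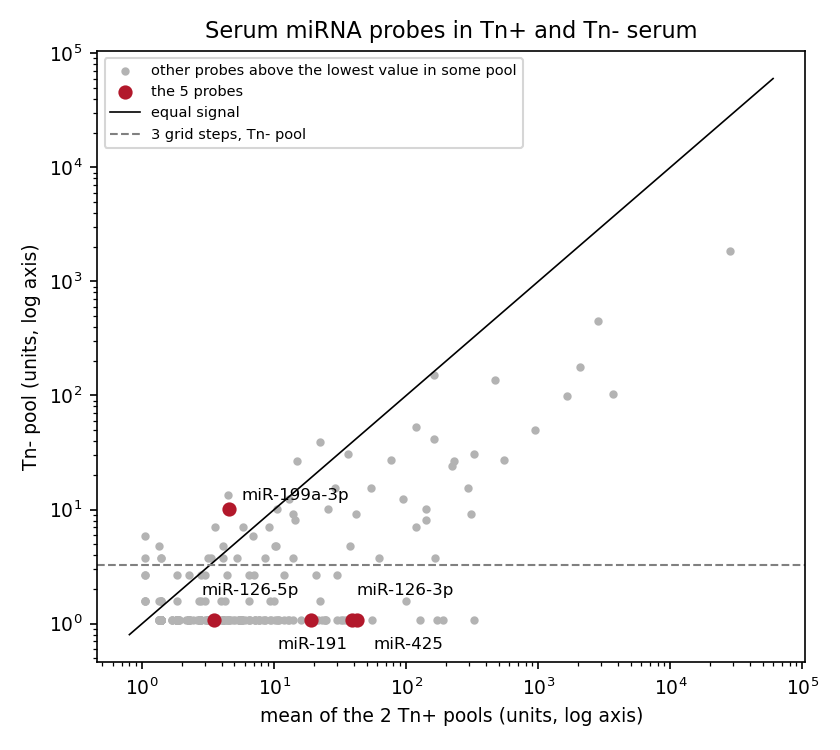
Signal in the Tn- pool against the mean of the Tn+ pools (units, log axes) for the 259 probes detected in at least 1 pool, with the 5 probes in red. The line marks equal signal; miR-126-3p, miR-126-5p, miR-191 and miR-425 lie on the row of undetected Tn- values, and miR-199a-3p lies above the line.

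Fitted on the 259 detected probes alone, limma gave adjusted p = 0.00470 for miR-425, 0.00628 for miR-126-3p and 0.0463 for miR-191, and called 11.2% of these probes higher in Tn+ serum and 0% lower. This fit gave every probe the same SE of 1.15, pooled over probes, so that only the size of a ratio decides whether it is called. All 5 passed this filter, 4 of them through the Tn+ pools alone, so that the difference itself let them in and these calls are no support for it. The calls of miR-425, miR-126-3p and miR-191 were each lost with this filter once pools were put on a common scale by any of 4 methods. These were the median of ratios over probes detected in all pools, the geometric mean of the 100 highest probes, the total without miR-451 and the total, which removed a 3.18-fold, 6.06-fold, 7.48-fold and 10.4-fold difference between Tn+ and Tn- serum. Limma then gave adjusted p from 0.174 to 0.544 for miR-425, 0.184 to 0.544 for miR-126-3p and 0.405 to 0.596 for miR-191.

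The low total of the Tn- pool, whose source was not tested, limited what its undetected values can show. As a share of the pool total, miR-126-3p made up 0.0721% and 0.111% of the Tn+ pools, miR-425 0.0721% and 0.131%, and miR-191 0.0390% and 0.0462%. In the Tn- pool, 3 grid steps amount to 0.0769% of the total. The shares of miR-126-3p and miR-425 in Tn+ pool 1, and of miR-191 in both Tn+ pools, were below that level. Signals under 3 steps do occur in the Tn- pool, where a probe with 1.58 units counts as detected.

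The same comparison was made as the Tn- signal that an equal level would give on each scale. At equal totals, the level of miR-126-3p in the Tn+ pools corresponded to 3.03 and 4.66 units in the Tn- pool, that of miR-425 to 3.03 and 5.52 units, and that of miR-191 to 1.64 and 1.94 units, all beside 3 steps of 3.23 units. On the scale of the 100 highest probes they corresponded to 6.42 and 6.44 units for miR-126-3p, 6.42 and 7.63 units for miR-425, and 3.47 and 2.68 units for miR-191. With equal totals without miR-451 they corresponded to 6.14 and 4.42 units, 6.14 and 5.24 units, and 3.32 and 1.84 units. Scaled by the median of ratios, they corresponded to 14.3 and 10.5 units for miR-126-3p, 14.3 and 12.4 units for miR-425, and 7.72 and 4.38 units for miR-191. For miR-126-3p and miR-425, both Tn+ pools thus gave values above 3 steps on 3 of the 4 scales, and on equal totals the value from Tn+ pool 1 fell below. For miR-191 both lay above 3 steps only with the median of ratios.

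**Figure D3:**
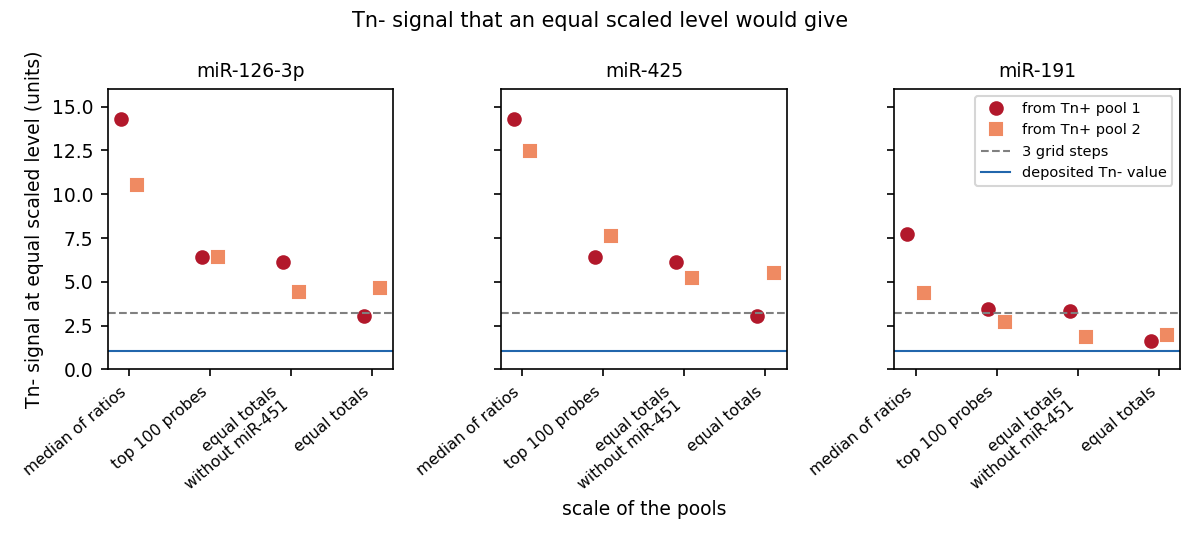
Signal (units) that the Tn- pool would show for miR-126-3p, miR-425 and miR-191 if their level equalled that of each Tn+ pool on 4 scales. The dashed line marks 3 grid steps (3.23 units) and the solid line the deposited Tn- value (1.08 units); for miR-126-3p and miR-425 only the point from Tn+ pool 1 on equal totals lies below the dashed line, and for miR-191 both points lie above it only on the median of ratios.

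On every scale, miR-199a-3p was lower in Tn+ serum, and the gap widened when totals were made equal. It made up 0.0134% of all signal of Tn+ pool 1, against 0.243% for Tn- serum, where it ranked 25th of 85 detected probes, against 77th of 228 in Tn+ pool 1. The share in the Tn- pool was 18.2-fold that in Tn+ pool 1, 8.97-fold without miR-451, and the signal was 3.85-fold higher in the Tn- pool after median-of-ratios scaling. At the Tn- share, Tn+ pool 2 would have held 77.6 units, and the probe was undetected there. With limma on the 259 detected probes, the adjusted p was 0.00165 with equal totals (log2 ratio -4.32), 0.0124 with the scale of the 100 highest probes (-3.61), 0.113 with equal totals without miR-451 (-3.81) and 0.627 with the median of ratios (-2.77). The limma adjusted p as deposited was 0.723. With equal totals, limma called 24 of the 259 probes lower in Tn+ serum and 4 higher. With the scale of the 100 highest probes it called 7 lower and 4 higher. Calls on the lower side were thus not particular to miR-199a-3p. Under these scales all probes described here had the same SE, 0.997 and 0.992, so among them only the size of a ratio decided a call. The size for miR-199a-3p rests in part on Tn+ pool 2, where the undetected value was taken as the scaled lowest value.

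**Figure D4:**
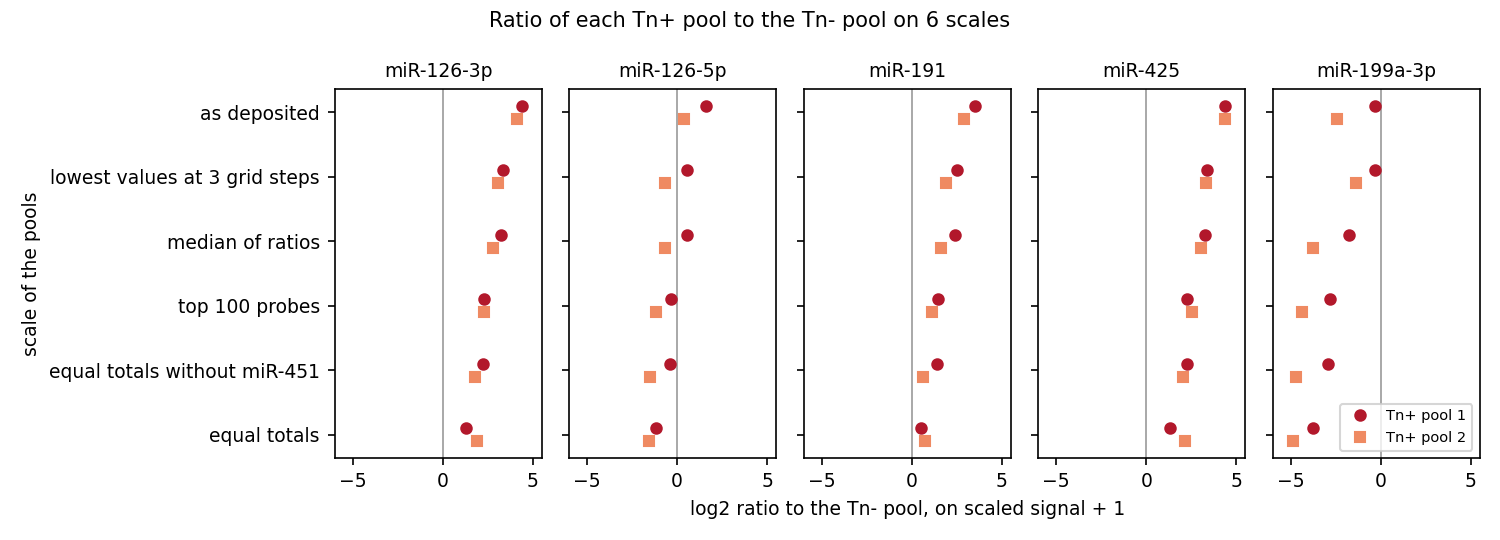
log2 ratio of Tn+ pool 1 and Tn+ pool 2 to the Tn- pool, on signal + 1, for each probe on the deposited scale, with undetected values at 3 grid steps, and on 4 common scales. miR-126-3p, miR-425 and miR-191 stay to the right of 0, miR-199a-3p stays to the left, and miR-126-5p crosses 0. On the 4 common scales an undetected value is the scaled lowest value, so the positions of all 5 depend on it, that of miR-199a-3p only in Tn+ pool 2.

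The ratio of the arms of miR-126 does not depend on how pools are scaled, although probes can differ in efficiency, so that only its difference between pools is described. miR-126-3p was 8.15-fold above miR-126-5p in Tn+ pool 1 and 20.8-fold above it in Tn+ pool 2. Both arms were undetected in Tn- serum, so no ratio can be given there. The log2 ratio differed by -1.35 between the Tn+ pools, pool 1 minus pool 2, with a least counting error of 1.34. Adding 1 grid step to miR-126-5p gave 6.96-fold in pool 1 and 12.7-fold in pool 2. A difference in arm ratio between the Tn+ pools was therefore not detectable at these signal levels. Of 65 microRNA names with a 3p and a 5p probe in the table, only miR-126 and miR-142 had both arms detected in both Tn+ pools, and the arm ratio of miR-142 differed by 1.89 log2 units between them.

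miR-191 and miR-425 can be compared in the same way, since they come from 1 transcript. The ratio of miR-191 to miR-425 was 0.540 in Tn+ pool 1 and 0.352 in pool 2, while both were undetected in the Tn- pool. The log2 ratio differed by 0.62 between the Tn+ pools, with a least counting error of 0.58, and 1 grid step more or less of miR-191 moved it to between 0.519 and 0.561 in pool 1 and between 0.326 and 0.378 in pool 2. miR-425 thus had the higher signal of the pair in both Tn+ pools. For scale, 25 pairs of microRNA genes within 10 kb of each other, this one included and some sharing a probe, were detected in both Tn+ pools. Their log2 ratios differed between the Tn+ pools by a median of 1.39, from 0.23 to 4.78, and 4 pairs differed less than miR-191 and miR-425. Among the 7 pairs with 10 units or more throughout Tn+ serum, a limit set after seeing the data, the median was 1.05. Of these 7, only miR-144 and miR-451 differed less, at 0.23, and miR-106b and miR-25 differed most, at 3.46.

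**Figure D5:**
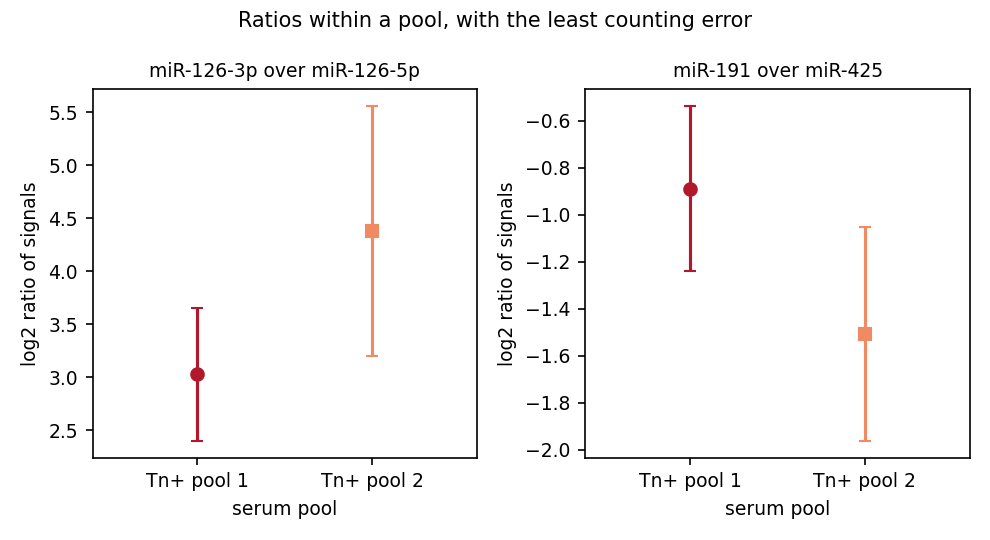
log2 ratio of miR-126-3p to miR-126-5p (left) and of miR-191 to miR-425 (right) in each Tn+ pool, with bars of 1 least counting error. The bars of the Tn+ pools overlap in the left panel and in the right panel; the Tn- pool gave no ratio.

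Other probes of the same hairpins held little signal. miR-199a-5p had 2.57 units in Tn+ pool 1 and was undetected in the other Tn+ pool and in Tn- serum. miR-214, which is cut from the Dnm3os transcript that also holds Mir199a-2, was undetected in every pool. In the list of 8 fibroblast and stromal microRNAs, 7 had a probe and 4 were detected in some pool, with a summed signal of 15.6 and 2.79 units in Tn+ serum and 12.9 units in Tn- serum. Without miR-199a-3p that leaves miR-152, at 3.46 units and undetected in the Tn+ pools and 2.65 units in the Tn- pool, as the only one detected in Tn- serum. miR-145 had 1.67 and 2.79 units in Tn+ serum and was undetected in the Tn- pool. miR-143 and miR-140 were undetected throughout. The median log2 ratio of the 3 detected besides miR-199a-3p was 0.39. None of the 7 met the 2-fold rule on either side, beside 12% of all 566 probes on the higher and 0.707% on the lower side.

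The list of 15 platelet microRNAs, of which 14 had a probe, holds all 5 described here. Of the 9 others with a probe, 5 were detected in some pool, all 5 of them also in the Tn- pool. Of the 9, 4 met the 2-fold rule on the higher side and none on the lower side, and 0 passed limma over all probes. The higher side was met by 12% of all 566 probes and 26.3% of the 259 detected. The median log2 ratio of the 5 detected others was 3.00, beside 0.71 over the 259 detected probes and 3.68 over the 7 detected red-cell microRNAs. miR-223, the most abundant of the list, had 719 and 225 units in Tn+ serum and 136 in Tn- serum. miR-22 had 291 and 166 units in Tn+ serum and 26.4 in Tn- serum. miR-24, miR-26a, miR-96 and miR-221, all known from platelets, were undetected in every pool. The whole list of 14, with the 5 described here, accounted for 2.79% and 2.44% of Tn+ signal, against 5.02% of Tn- signal.

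Of the 15 endothelial microRNAs, which include both arms of miR-126, 7 were detected in some pool and 3 in the Tn- pool. Limma over all probes passed 0 of them. On the higher side 4 met the 2-fold rule, beside 12% of all 566 probes and 26.3% of the 259 detected. Besides miR-126-3p these 4 were miR-23a (393 and 199 units against 15.6 in the Tn- pool), miR-27a (155 and 127 units against 10.2) and miR-130a (129 and 61.6 units against 12.4). The median log2 ratio of the 7, and of the 5 without miR-126, was 2.75, and the list accounted for 1.23% and 1.34% of Tn+ signal, against 0.907% of Tn- signal. miR-221, miR-222, miR-10a and miR-10b, which endothelial cells also make, were undetected in all pools.

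The probes most like each of the 5 over the 3 pools were sought among the 55 other probes with a mean of at least 10 units, by the distance between centred log2 profiles. For miR-126-3p these were miR-27a, miR-23a and miR-93, at distances of 0.50, 0.53 and 0.53. For miR-191 they were miR-22, miR-16 and miR-27a (0.22, 0.24 and 0.42), and for miR-425 they were miR-27a, let-7c and miR-21 (0.62, 0.63 and 0.63). For miR-126-5p they were miR-223, miR-1944 and miR-19b (0.57, 0.65 and 0.65). None of the 55 came close to miR-199a-3p, where the nearest, miR-878-5p, lay at 1.97. However, miR-199a-3p and miR-126-5p themselves had means under 10 units, and probes that low were not searched. The distance of 1.97 therefore does not show that the profile of miR-199a-3p is uncommon in the table. With 3 pools these distances are descriptions, and all probes share the difference in pool totals.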

How the data were processed

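NanoString's nCounter Mouse v1.5 panel, which counts hybridized barcodes directly, was run on serum RNA in 3 pools (2 Tn+, 1 Tn-) grouped by their titles. The deposited signal per probe had been normalized by the authors in NanoString's Advanced Analysis software, per the design text, and the submitters' processing notes also list R 4.4. How background was subtracted and which probes set the scale is not given in the sources used here. The labels give the same amount of RNA, 30 ng, for every pool. Totals still differed between pools, so a ratio can hold that difference, whose source was not tested. A second deposited table held the same signal in 1698 of 1698 values.

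The design named a count model for whole counts. The values were not whole, so limma 3.58.1 in R 4.3.3 was fitted to log2(signal + 1), which understates changes of low probes, with Benjamini-Hochberg adjustment over all 566 probes. The fit was tested on simulated data. Python 3.11.15 gave all else.

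The 5 probes are named in all cases. Other probes of their hairpins, the 3 nearest profiles per probe and the marker lists follow rules, and miR-142, miR-489, miR-144, miR-451, miR-106b and miR-25 were chosen after their values were seen. The probes and lists were chosen with earlier results of these data known. Sequences and positions are from RefSeq (GRCm38.p6). Alternatives were 4 scalings, other pseudocounts, filters on low values, undetected values at 3 grid steps, the second table and leaving out a Tn+ pool.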

Additional observations from a re-analysis of the deposited data

How the results depend on the processing

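No paired analysis was possible because the Tn+ and Tn- pools share only 1 replicate number. On the deposited scale the log2 ratio without 1 of the Tn+ pools was 4.13 to 4.40 for miR-126-3p, 0.38 to 1.59 for miR-126-5p, 2.92 to 3.54 for miR-191, 4.37 to 4.40 for miR-425 and -2.42 to -0.33 for miR-199a-3p, with no test. The number of the 5 probes at least 2-fold higher was 3 without Tn+ pool 1 and 4 without Tn+ pool 2. It was 2 with equal totals, with or without miR-451, where miR-191 no longer met the rule.

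The signs of miR-126-3p, miR-191, miR-425 and miR-199a-3p were kept under all alternatives run. On the common scales, undetected values stayed at the lowest value divided by the factor of the pool. Undetected values at 3 grid steps were tried only on the deposited scale. The signs of miR-126-3p, miR-191 and miR-425 on the common scales therefore depend on the lowest Tn- value and are no proof of robustness. miR-126-5p turned negative at -0.076 with the median of ratios, -0.76 with the top-100 scale, -1.36 with equal totals, -0.95 with equal totals without miR-451, and -0.042 with undetected values at 3 grid steps, with and without the filter to detected probes.

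Limma passed 0 probes as fixed (63 at an unadjusted p under 0.05), 29 among the 259 detected and 32 among the 58 with a mean of 10 or more. With undetected values at 3 grid steps it passed 43, or 34 among the detected. In these fits miR-126-3p passed at 4.26 or, with 3 steps, 3.24, and miR-425 at 4.38 or 3.36, while miR-191 passed at 3.23 or 2.20 except with 3 steps among the detected (limma adjusted p = 0.132). These 3 met both filters only through their Tn+ signal, and all 32 and 29 calls were higher in Tn+ serum, so the filtered calls are no independent support. Scaled with all 566 probes, limma passed 336 (median of ratios), 369 (top-100), 463 (equal totals) and 390 (equal totals without miR-451). Each of these counts includes the 307 probes undetected in every pool, whose equal lowest values the scaling itself makes unequal, so they are not read. There miR-191 stood at 2.03, 1.28, 0.63 and 1.03 without passing, while miR-126-3p passed at 3.04, 2.29, 1.62 and 2.03, miR-425 at 3.16, 2.40, 1.74 and 2.14, and miR-199a-3p at -3.61 (top-100) and -4.32 (equal totals). Of all 566 probes, these fits called 11, 19, 9 and 5 higher in Tn+ serum. The passes of single probes come from the same fits and are not read either. Scaling among the 259 detected was added after seeing the data, and there limma passed 0, 11, 28 and 0 probes. Of these, 7 (top-100) and 24 (equal totals) were lower in Tn+ serum, and 4 in each fit were higher. Of the 5, only miR-199a-3p passed, at -3.61 (top-100) and -4.32 (equal totals). Pseudocounts of 0.5 and 5 and the second table changed no call. Tn+ serum had 49 and 47 probes at 20 units or more and the Tn- pool 18, and this limits every ratio to an undetected value.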
